A study of Homo sapiens with 21 samples.

Results

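YAP and TEAD target genes were followed through irradiation-induced senescence and depletion of cyclin D1 and its kinases in IMR90 cells. IMR90 is a widely used human fibroblast line from lung. The 10 genes were selected by symbol from the 16383 genes of the deposited table. They were the co-activators YAP1 and WWTR1 (the gene of TAZ), the DNA-binding partner TEAD1, and the target genes CCN1, CCN2, ANKRD1, AXL, AJUBA, AMOTL2 and LATS2. The set was proposed after the difference of ANKRD1 between the 2 control siRNAs had been seen in these libraries, so values that separate those controls are given as a description, without a test.

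RNA was sequenced from 21 libraries in 7 groups of 3. The proliferating group is labelled wild type and untreated, that is neither irradiated nor transfected. The other 6 groups were irradiated, received siRNA at 5 nM with DharmaFECT on days 4 and 7 after irradiation, and were harvested on day 10. The NT3 and NT4 groups (labelled wild type, with non-targeting siRNA #3 and #4) served as separate controls, and the remaining groups had CCND1, CDK4 or CDK6 knocked down, or both kinases at once (dual knockdown). Irradiation and transfection cannot be told apart in any comparison with the proliferating group. The labels name 1 siRNA per target, so an effect of a reagent outside its target cannot be told apart from the effect of the target. Nothing in the labels says that the replicates were separate cultures, so p-values measure the spread between these libraries, which may be technical. In bulk RNA, fewer cells that express a gene and less RNA per cell cannot be told apart.

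As background, YAP and TAZ are transcriptional co-activators that have no DNA-binding domain and act mainly through the TEAD factors. The Hippo kinases MST1 and MST2 activate LATS1 and LATS2, which phosphorylate YAP and TAZ and hold them outside the nucleus. Cell spreading, stiffness and actin tension release this brake, which makes the pathway active in cultured fibroblasts. Several targets feed back on the pathway: LATS2 is one of the kinases, AMOTL2 binds YAP, and AJUBA binds LATS kinases. Activity of YAP and TAZ is set largely by phosphorylation and location, which mRNA levels do not measure.

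The 7 target genes did not move as one group. Against proliferating cells, the mRNAs of AXL and AJUBA were lower in every irradiated group, ANKRD1 was higher in every irradiated group, and CCN2 was at 51.9% of the proliferating mean in NT4 but did not pass against it in NT3. The 2 controls themselves stood on either side of the knockdowns for ANKRD1, so a knockdown could be read as lower or as higher depending on the control chosen. AXL fell against both controls in CCND1 and CDK6 knockdown. The difference between CDK6 and CDK4 knockdown, which needs no control, was 0.96 on the log2 scale for CCN2 and -0.61 for ANKRD1.

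Depth ran from 12892442 to 21822152 reads per library over the genes in the table. Each siRNA lowered the mRNA it was aimed at. CCND1 mRNA in the CCND1 knockdown was 14.4% of NT3 and 10% of NT4, CDK4 mRNA in the CDK4 knockdown was 8.87% and 8.47%, and CDK6 mRNA in the CDK6 knockdown was 15.3% and 17.8%. In dual knockdown CDK4 was at 9.63% and 9.2% and CDK6 at 19.1% and 22.3% of NT3 and NT4. All 9 fibroblast markers were detected, with a summed signal of 451735 to 867109 per library, lowest in NT3 (451735 to 510774) and highest in dual knockdown (681903 to 867109). The summed signal of 5 epithelial, 4 endothelial, 4 leukocyte and 4 striated muscle markers was at most 55.0 in any library. NT3 replicate 3 stood apart from its group: the SD of its deviations from the group mean over all tested genes was 0.34 on the log2 scale, the highest of the 18 irradiated libraries. It was also the lowest NT3 library for every gene of the set but CCN1 and ANKRD1, so counts that use NT3 are also given without it.

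TEAD factors recognise the element GGAATG. The 250 bases before the RefSeq start (GRCh38.p14) of CCN2, ANKRD1 and AXL are shown because these 3 genes had different patterns over the groups. Letters are 5′ to 3′ on the gene's strand, and capitals mark GGAATG or its reverse complement CATTCC.
CCN2 promoter, chr6:131951373-131951622, minus strand: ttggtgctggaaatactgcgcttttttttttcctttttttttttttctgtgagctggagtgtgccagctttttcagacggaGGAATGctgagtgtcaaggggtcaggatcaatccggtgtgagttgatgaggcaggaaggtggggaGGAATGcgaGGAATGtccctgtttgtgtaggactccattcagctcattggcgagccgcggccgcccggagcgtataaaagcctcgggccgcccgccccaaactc
ANKRD1 promoter, chr10:90921088-90921337, minus strand: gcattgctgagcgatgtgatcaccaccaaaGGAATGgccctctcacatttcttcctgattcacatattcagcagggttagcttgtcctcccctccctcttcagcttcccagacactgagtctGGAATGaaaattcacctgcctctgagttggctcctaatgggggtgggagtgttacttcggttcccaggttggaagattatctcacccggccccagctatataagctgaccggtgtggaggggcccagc
AXL promoter, chr19:41218973-41219222, plus strand: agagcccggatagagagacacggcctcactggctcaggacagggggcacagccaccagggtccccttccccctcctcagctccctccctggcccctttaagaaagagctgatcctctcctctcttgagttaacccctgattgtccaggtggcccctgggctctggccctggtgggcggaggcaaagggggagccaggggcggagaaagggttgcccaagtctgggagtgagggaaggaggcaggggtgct
AXL promoter, chr19:41226505-41226754, plus strand: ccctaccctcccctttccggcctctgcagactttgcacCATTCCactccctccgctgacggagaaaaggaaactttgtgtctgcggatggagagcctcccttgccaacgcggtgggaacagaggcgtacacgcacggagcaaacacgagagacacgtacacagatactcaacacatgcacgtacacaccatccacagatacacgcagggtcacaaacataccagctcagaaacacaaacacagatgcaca
The CCN2 window held 3 matches, the first beginning 169 bases and the last 95 bases before the start, and the ANKRD1 window held 2, at 220 and 128 bases. Of the 2 AXL windows, one for each RefSeq start in the table, the upstream one held no match and the other held 1, at 212 bases. Windows were given for 8 of the 10 genes, 12 windows in all: YAP1 had 1 match, AMOTL2 and AJUBA had 1 in 1 of their windows, and LATS2 and WWTR1 had none. GGAATG on either strand occurred in 11.89% of all 35116 windows of this length. The AP-1 element TGANTCA, searched on both strands, occurred in 6.573% of windows and once in ANKRD1, 195 bases before the start. The CArG box, to which SRF binds, occurred in 1.159% of windows and in none of the 12. A match is a string of letters, and binding was not measured here.

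Levels below are normalised read counts, that is reads divided by a size factor for each library. They are not scaled to gene length, so they are compared between groups and not between genes. Differences are on the log2(value + 1) scale, fitted with limma with 1 spread shared by all 7 groups, and adjusted p-values (Benjamini-Hochberg over 11579 tested genes) were read against 0.05. A gene was called against the controls only when it passed against NT3 and against NT4 in the same direction. These 2 comparisons share the knockdown libraries. All 10 genes passed the filter on low values.

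The mRNA of YAP1 was lower in CDK6 knockdown than in any other irradiated group on average. The CDK6 knockdown libraries held 3316, 3389.8 and 3701 YAP1 counts, against 4996, 5084 and 4573 in CDK4 knockdown. These groups did not overlap, with a log2 difference of -0.49 (95% interval -0.68 to -0.30, adjusted p = 0.000225). In CCND1 knockdown the counts were 5029, 4987 and 4655, higher than in CDK6 knockdown by 0.50 (95% interval 0.31 to 0.69, adjusted p = 0.000856). Dual knockdown lay between them (3944, 4093 and 4166). Against the controls, CDK6 knockdown differed from NT4 by -0.32 (95% interval -0.51 to -0.13, adjusted p = 0.0101) and from NT3 by -0.22 (95% interval -0.41 to -0.025, adjusted p = 0.0589), so it passed against NT4 only. The NT3 libraries spread from 3216 to 4709 and overlapped CDK6 knockdown through replicate 3. Without that library YAP1 was called lower in CDK6 knockdown.

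WWTR1 and TEAD1 had their lowest irradiated mean in NT3. WWTR1 read 2439.6, 2605 and 2041 in NT3 and 3178, 2850.4 and 3319 in NT4, without overlap, and 2053, 2299 and 2197 in proliferating cells. Its highest mean was in CCND1 knockdown (3288 ± 52.6, SD, n = 3), where it exceeded dual knockdown by 0.27 (95% interval 0.12 to 0.42, adjusted p = 0.0114). All 4 knockdowns held more WWTR1 mRNA than proliferating cells, from 0.32 in dual to 0.59 in CCND1 knockdown. Against the controls no knockdown was called, since WWTR1 passed as higher than NT3 in all 4 while against NT4 it passed only in dual knockdown, where it was lower (-0.19, 95% interval -0.34 to -0.037, adjusted p = 0.0482). That last call was lost in 15 of the 21 fits without 1 library, with adjusted p up to 0.199 (without NT4 replicate 3), and WWTR1 did not pass in dual knockdown against NT3 without NT3 replicate 3 (0.118). TEAD1, the TEAD factor in the set, read 5507, 6229 and 3592 in NT3 and 6353, 5985 and 6633 in NT4, which overlapped. It ranged from 5955 ± 669 (SD, n = 3) in CDK4 knockdown to 7377 ± 270.5 (SD, n = 3) in CDK6 knockdown, and that difference did not pass (0.31, 95% interval 0.053 to 0.58, adjusted p = 0.0577). It passed without NT3 replicate 3 (adjusted p = 0.00029), and TEAD1 was then called higher in CDK6 knockdown against both controls. With all libraries TEAD1 passed as higher than NT3 in CCND1, CDK6 and dual knockdown, by 0.49, 0.57 and 0.37, and in no knockdown against NT4. In dual knockdown it did not pass against NT3 without NT3 replicate 3 (adjusted p = 0.121). With the compared groups fitted alone, TEAD1 passed against NT3 in none of CCND1, CDK6 and dual knockdown (adjusted p = 0.0955, 0.0501 and 0.168). Over the alternatives its differences from NT3 were as low as 0.25 in CCND1 and 0.33 in CDK6 knockdown.

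CCN2 (connective tissue growth factor, a secreted matricellular protein and a standard readout of YAP) fell into a high and a low range among irradiated groups. NT3 libraries read 19766, 18198 and 16777 and NT4 libraries 9479.8, 9852 and 7522, so NT4 was at 49.1% of NT3. CDK4 knockdown read 10794, 8606 and 11292 and CDK6 knockdown 20389, 19807 and 19010.0. The lowest CDK6 knockdown library was above the highest CDK4 knockdown library, a 1.93-fold difference of means and a log2 difference of 0.96 (95% interval 0.75 to 1.16, adjusted p = 1.31e-07). CCND1 knockdown (14830.2, 17391 and 16944) and dual knockdown (17478, 16076 and 15816) stood with the high range, next to proliferating cells (17498, 17143 and 17134). In order of mean, CDK6 knockdown was followed by NT3, proliferating, dual, CCND1, CDK4 knockdown and NT4. Neighbours in that order overlapped, except CCND1 and CDK4 knockdown (0.69, 95% interval 0.48 to 0.89, adjusted p = 2.26e-05).

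Read against the controls, CCN2 gave different answers. CDK4 knockdown was lower than NT3, with a log2 difference of -0.84 (95% interval -1.05 to -0.64, adjusted p = 2.18e-06), and did not pass against NT4 (0.19, 95% interval -0.012 to 0.40, adjusted p = 0.245). CCND1, CDK6 and dual knockdown exceeded NT4 by 0.88, 1.15 and 0.89, with adjusted p of 1.78e-06, 1.57e-08 and 3.56e-07. Against NT3 the same groups differed by -0.16, 0.12 and -0.15, none past the threshold. No knockdown was therefore called for CCN2. NT4 was below proliferating cells (-0.96, 95% interval -1.16 to -0.75, adjusted p = 2.41e-08), while NT3 did not pass against them (0.077, 95% interval -0.13 to 0.28, adjusted p = 0.501).

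CCN1 (CYR61, another secreted protein of the CCN family) read 12621, 11525 and 12443 in NT3 and 8677, 8348 and 7851 in NT4, the highest and lowest means of the 7 groups. The 4 knockdown means lay between them, from 9293 ± 945 (SD, n = 3) in CDK4 to 10759 ± 712 (SD, n = 3) in dual knockdown. Against NT3, CCN1 passed as lower in all 4 knockdowns, and against NT4 it passed as higher in CCND1, CDK6 and dual knockdown. In CCND1 knockdown these differences were -0.33 (95% interval -0.48 to -0.18, adjusted p = 0.000931) and 0.23 (95% interval 0.08 to 0.37, adjusted p = 0.0267). NT3 also passed as higher than proliferating cells (0.26, 95% interval 0.11 to 0.40, adjusted p = 0.00295) and NT4 as lower (-0.30, 95% interval -0.45 to -0.15, adjusted p = 0.000845). Between knockdowns, dual exceeded CDK4 by 0.21 (95% interval 0.068 to 0.36, adjusted p = 0.0248), a call lost without CDK4 replicate 1 or 2 or dual replicate 1 or 3 (adjusted p up to 0.173). The call of CCND1 knockdown against NT4 was lost without NT4 replicate 2 or 3 or CCND1 knockdown replicate 2 (up to 0.146). That of CDK6 knockdown against NT4 was lost without NT4 replicate 3 or CDK6 knockdown replicate 1 (up to 0.106). That of dual knockdown against NT3 was lost without NT3 replicate 1 or dual replicate 2 or 3 (up to 0.185). Dual against CDK4 knockdown was also lost under quantile normalisation (adjusted p = 0.479). So were CCND1 and CDK6 knockdown against NT4 (0.217 and 0.182). Dual knockdown against NT3 was also lost with the compared groups fitted alone (0.175).

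ANKRD1 (cardiac ankyrin repeat protein, a nuclear and sarcomeric protein induced by stretch and injury) had the widest range of the set. Proliferating libraries read 48.9, 45.8 and 51.4, NT3 682, 858 and 888 and NT4 154, 206 and 165. Every irradiated library was above every proliferating one, by 16.6-fold of means in NT3 and 3.6-fold in NT4, and NT4 was at 21.6% of NT3. The knockdowns lay between the controls: CCND1 knockdown read 421, 409.7 and 512, CDK4 405, 345 and 368, CDK6 256, 273 and 205 and dual 428, 649.7 and 479.5. All were below all NT3 libraries, and all but CDK6 knockdown, whose lowest library fell within the NT4 range, were above all NT4 libraries. In order of mean, NT3 was followed by dual, CCND1, CDK4 and CDK6 knockdown, NT4 and proliferating cells, and of these neighbours dual and CCND1 knockdown overlapped, as did CDK6 knockdown and NT4. NT3, where ANKRD1 was highest, also had the lowest sums of fibroblast markers, and their part in this difference was not tested. Striated muscle markers summed to 27.5 to 34.9 in the proliferating libraries and to 2.84 to 18.8 in the irradiated ones. Of these markers only TNNT2 passed the filter on low values. A relation of these sums to ANKRD1 was not tested, and nothing is read from them.

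Knockdown groups were compared with one another for ANKRD1, since these contrasts do not use the controls. Dual knockdown exceeded CDK6 knockdown by 1.07 (95% interval 0.76 to 1.38, adjusted p = 3.52e-05), a 2.12-fold difference of means. CCND1 knockdown exceeded CDK6 knockdown by 0.87 (95% interval 0.56 to 1.18, adjusted p = 0.0004), and CDK6 knockdown was below CDK4 knockdown, with a difference of -0.61 (95% interval -0.92 to -0.30, adjusted p = 0.00273). Of the 4 knockdowns, CDK6 knockdown had the lowest mean of ANKRD1 and the highest of CCN2. Dual exceeded CDK4 knockdown by 0.46 (95% interval 0.15 to 0.77, adjusted p = 0.0239), a call that was lost without dual replicate 2 (adjusted p = 0.167) and without CDK4 knockdown replicate 2 (0.0936) or 3 (0.0585). CCND1 against dual (-0.20, 95% interval -0.51 to 0.11, adjusted p = 0.394) and CCND1 against CDK4 (0.26, 95% interval -0.051 to 0.57, adjusted p = 0.229) did not pass. Against proliferating cells the 4 knockdowns were higher by 3.17 (CCND1), 2.91 (CDK4), 2.30 (CDK6) and 3.37 (dual), the largest adjusted p being 1.15e-11.

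**Figure D1:**
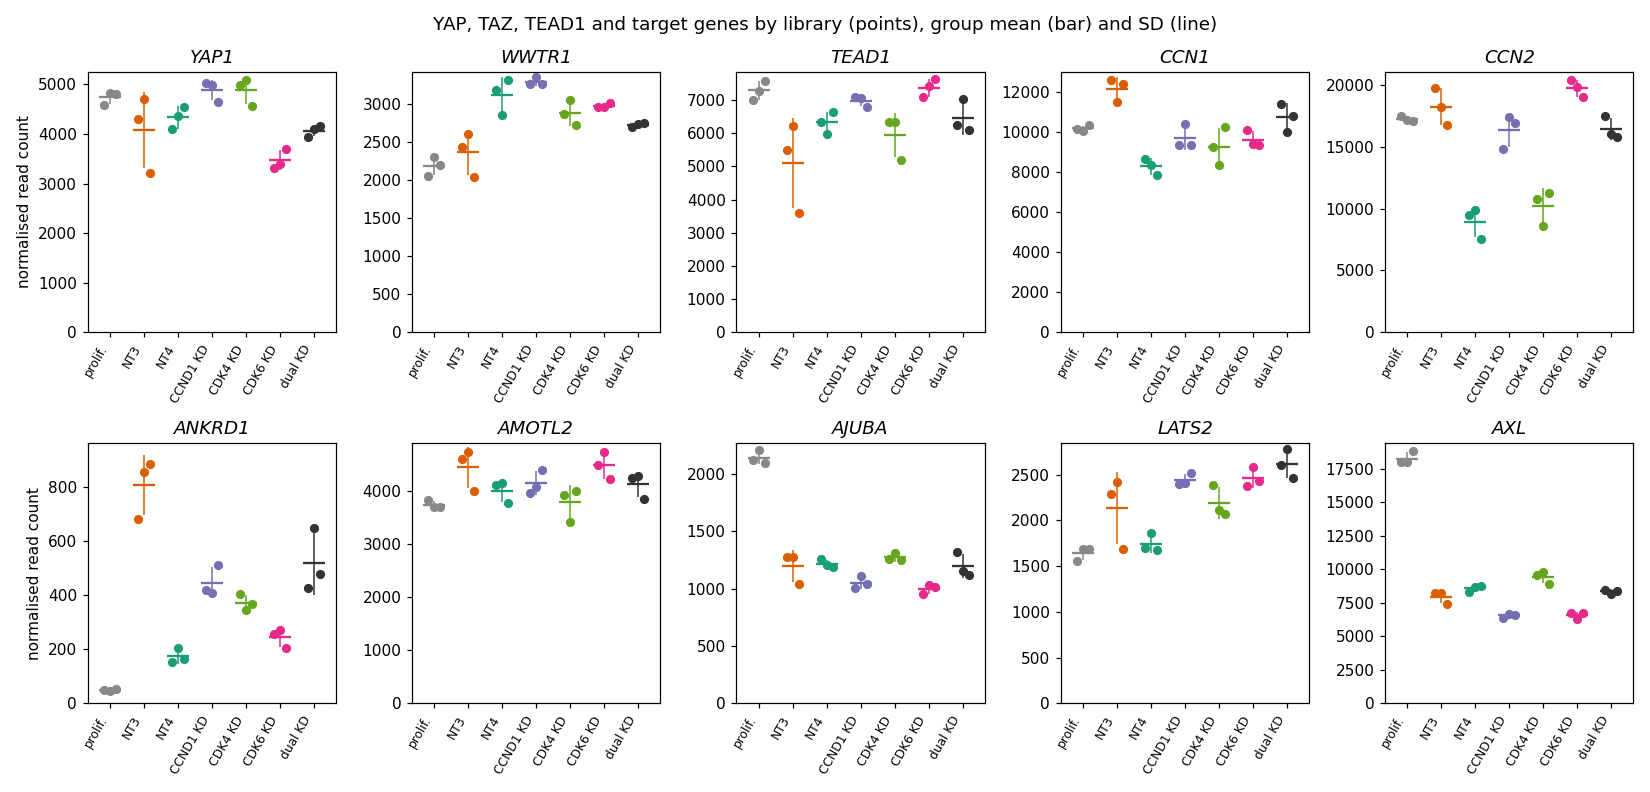
Normalised read counts (vertical axes, from 0) of the 10 genes in each library, with 1 panel per gene and 1 column per group; points are libraries, bars group means and vertical lines SD (n = 3). NT3 and NT4 stand apart for ANKRD1 (means 809 and 175) and CCN2, while AXL and AJUBA are below the proliferating libraries in all irradiated groups.

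AXL (a receptor tyrosine kinase of the TAM family) was lower in every irradiated library than in any proliferating one. Proliferating libraries read 17999.8, 18017 and 18795, NT3 8244, 8223 and 7417 and NT4 8328, 8703 and 8774. The controls were thus at 43.6% and 47.1% of the proliferating mean, with log2 differences of -1.20 (95% interval -1.31 to -1.09, adjusted p = 2.59e-14) and -1.09 (95% interval -1.20 to -0.98, adjusted p = 1.65e-13). CCND1 knockdown (6379.8, 6693 and 6608) and CDK6 knockdown (6710.5, 6305 and 6756) were lower still, below every library of either control. CCND1 knockdown differed from NT3 by -0.28 (95% interval -0.39 to -0.17, adjusted p = 0.000348) and from NT4 by -0.39 (95% interval -0.50 to -0.28, adjusted p = 1.99e-05). CDK6 knockdown differed by -0.27 (95% interval -0.38 to -0.16, adjusted p = 0.000291) and -0.38 (95% interval -0.50 to -0.27, adjusted p = 1.11e-05). CDK4 knockdown read 9574, 9790.4 and 8920.5, above NT3 by 0.24 (95% interval 0.13 to 0.36, adjusted p = 0.00181), while its difference from NT4 did not pass (0.13, 95% interval 0.021 to 0.24, adjusted p = 0.123). Without NT3 replicate 3 it was called higher. Dual knockdown (8489.9, 8177 and 8417) was above CDK6 knockdown by 0.34 (95% interval 0.23 to 0.45, adjusted p = 0.000118) and did not pass against either control.

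AJUBA (a LIM protein of cell junctions that binds LATS kinases) read 2121, 2205 and 2097 in proliferating cells and 1275, 1276 and 1038 and 1256, 1204 and 1184 in NT3 and NT4. It was lower in both controls, with differences of -0.85 (95% interval -1.001 to -0.69, adjusted p = 1.85e-09) and -0.82 (95% interval -0.97 to -0.66, adjusted p = 3.98e-09). As with AXL, CDK6 knockdown (949, 1029 and 1016) was lower than the controls, with differences of -0.26 (95% interval -0.41 to -0.1, adjusted p = 0.00823) against NT3 and -0.28 (95% interval -0.44 to -0.13, adjusted p = 0.00599) against NT4. CCND1 knockdown (1008, 1112 and 1036) missed the threshold against both, with differences of -0.18 (95% interval -0.33 to -0.024, adjusted p = 0.0631) and -0.21 (95% interval -0.36 to -0.052, adjusted p = 0.0554). It was called lower there without NT3 replicate 3. Dual knockdown was above CDK6 knockdown by 0.26 (95% interval 0.10 to 0.42, adjusted p = 0.0237), which was lost without dual replicate 1 (adjusted p = 0.146) and without CDK6 knockdown replicate 1 (0.107) or 3 (0.0542).

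LATS2 (the kinase that phosphorylates YAP and TAZ) read 2601, 2782 and 2467 in dual knockdown, above all NT3 libraries (2290.1, 2424 and 1683) and all NT4 libraries (1696, 1857 and 1674). The differences were 0.31 (95% interval 0.11 to 0.51, adjusted p = 0.0111) and 0.59 (95% interval 0.39 to 0.78, adjusted p = 4.86e-05), so LATS2 was called higher in dual knockdown. The call was lost without NT3 replicate 3, where the difference from NT3 was 0.15 (adjusted p = 0.0609), and without dual knockdown replicate 2 (adjusted p = 0.0545). LATS2 also passed as higher than NT4 in CCND1, CDK4 and CDK6 knockdown, by 0.49, 0.33 and 0.50. Against NT3, CCND1 knockdown (0.21, 95% interval 0.014 to 0.41, adjusted p = 0.0839) and CDK6 knockdown (0.22, 95% interval 0.027 to 0.42, adjusted p = 0.0585) missed the threshold. Both passed without NT3 replicate 1 (adjusted p = 0.0452 and 0.0315) or 2 (0.0105 and 0.00667). Without NT3 replicate 3, the lowest NT3 library for LATS2, these differences shrank to 0.050 and 0.063 and neither passed. Dual knockdown did not pass against CCND1 or CDK6 knockdown. LATS2 was higher than in proliferating cells in all 4 knockdowns, from 0.41 in CDK4 to 0.67 in dual knockdown. AMOTL2 (an angiomotin that holds YAP at junctions and actin) stayed within 3412 to 4738 over all 21 libraries. It was higher in CDK6 than in CDK4 knockdown (0.25, 95% interval 0.096 to 0.40, adjusted p = 0.0109), a call lost without replicate 2 of either group (adjusted p = 0.0904 without that of CDK4 and 0.06 without that of CDK6 knockdown). AMOTL2 was called in no knockdown against the controls.

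Counted over the set, 9 genes were tested against the controls, ANKRD1 being left out. For NT3 and NT4 against proliferating cells, AJUBA and AXL were called lower and none higher, 2 of 9, where 52.4% of all tested genes were called in either direction. Without NT3 replicate 3 the count was 4, adding WWTR1 (higher) and TEAD1 (lower), beside 57.8% of all genes. The median difference of the set was -0.18 against -0.026 for all tested genes. In CCND1 knockdown 1 of 9 was called (AXL, lower), beside 11.6% of all genes. In CDK4 knockdown limma called none, as did edgeR and DESeq2 on recovered reads, with 1 at an unadjusted p under 0.05 against both controls, beside 4.67%. In CDK6 knockdown AJUBA and AXL were called lower, 2 of 9, beside 21%. In dual knockdown LATS2 was called higher, 1 of 9, beside 23.6%. Each of these counts was near or below the background. Without NT3 replicate 3 the counts were 2 (CCND1), 1 (CDK4), 4 (CDK6) and 0 (dual), beside 16.3%, 7.96%, 26.3% and 30.6% of all genes in the same fit. The CDK6 knockdown count, YAP1, AJUBA and AXL lower and TEAD1 higher, was then a larger share than that of all genes. NT3 replicate 3 was singled out after its values for the set were seen, so nothing is read from that share. Taking 1 control at a time, the counts were larger. Against NT3 they were 5, 6, 5 and 4 of 9 in CCND1, CDK4, CDK6 and dual knockdown, beside 38.2%, 25.6%, 46.3% and 44.6% of all genes. Without NT3 replicate 3 they were 6, 5, 6 and 3, beside 35.4%, 25.4%, 44.0% and 46.3%. In dual knockdown WWTR1, TEAD1 and LATS2 were then no longer higher, and YAP1, CCN1 and AMOTL2 were lower. Against NT4 the counts were 4, 1, 6 and 4 of 9, beside 19.3%, 11.6%, 30.6% and 36.7%. Without NT3 replicate 3, which enters here only through the shared spread, they were 6, 3, 8 and 4, beside 29.6%, 20.1%, 40.1% and 46.9%. NT3 alone differed from proliferating cells in 7 of 9 genes (background 67.0%) and NT4 in 5 of 9 (background 63.3%). Without NT3 replicate 3 both counts were 7 of 9, beside 68.8% and 69.4%. Between the controls themselves, the libraries did not overlap for CCN1, CCN2 and ANKRD1 (lower in NT4) and for WWTR1 and AXL (higher in NT4), 5 of 10 genes, beside 34.9% of all tested genes. Nothing is read from that count, since this difference chose the set.

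**Figure D2:**
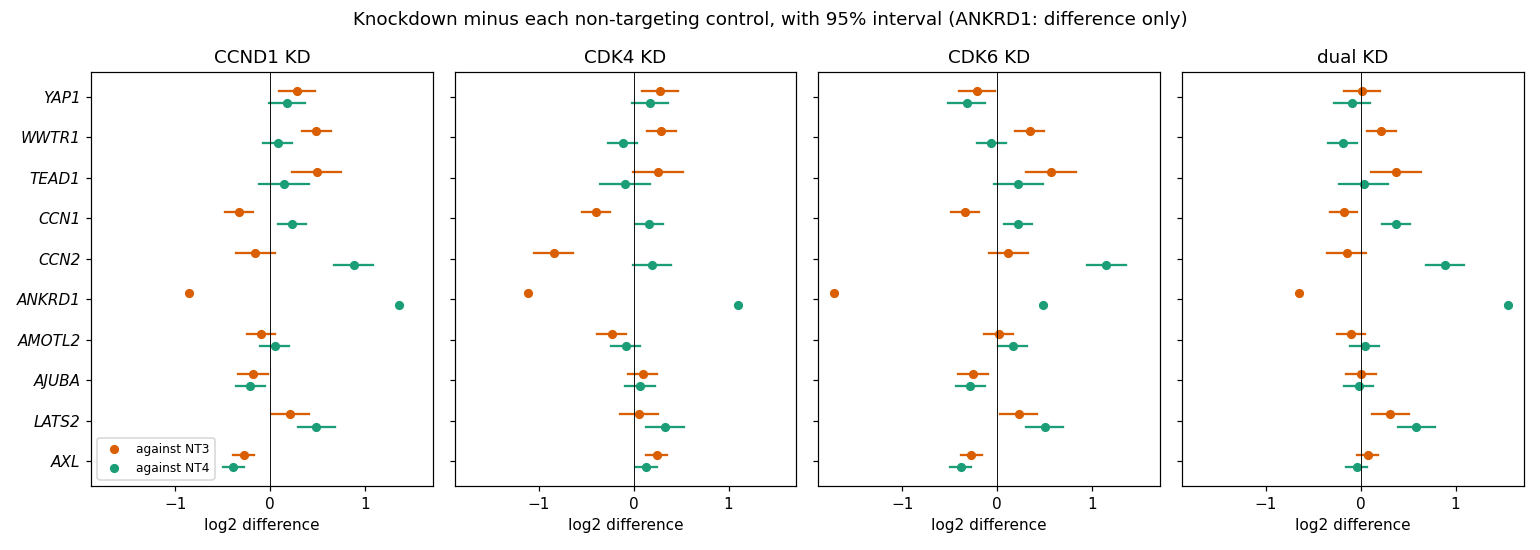
Log2 differences (horizontal axes) of the 10 genes in each knockdown against NT3 and against NT4, 1 panel per knockdown; points are differences and lines 95% intervals, left out for ANKRD1, which is shown without a test. For ANKRD1 the points of the 2 controls lie on opposite sides of 0 in all 4 panels, and for AXL they lie together, below 0 in CCND1 and CDK6 knockdown.

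Direct comparisons of knockdowns covered all 10 genes. CDK6 against CDK4 knockdown separated 6 of 10, beside 34.8% of all genes: CCN2 and AMOTL2 were higher with CDK6 depleted, and YAP1, ANKRD1, AJUBA and AXL were lower. Without NT3 replicate 3 it separated 8, adding TEAD1 and LATS2 (higher), beside 44.0%. Dual against CDK4 knockdown also separated 6 of 10, beside 30.6%: CCN1, CCN2, ANKRD1 and LATS2 were higher and YAP1 and AXL lower. That count rested on single libraries, being 1 without CDK4 knockdown replicate 2, 2 without dual replicate 2, and 3 without CDK4 replicate 1 or dual replicate 1. Dual against CDK6 knockdown gave 3 higher (ANKRD1, AJUBA and AXL), beside 13.0%, and 6 without NT3 replicate 3 (beside 24.6%). CCND1 against CDK6 knockdown gave 2 higher (YAP1 and ANKRD1), beside 12.2%, and 3 without NT3 replicate 3, adding CCN2 (lower), beside 20.9%. CCND1 against CDK4 knockdown gave CCN2 higher and AJUBA and AXL lower, 3 beside 23.3%, and 6 without NT3 replicate 3 (beside 33.2%); AJUBA was lost without CCND1 knockdown replicate 1 (adjusted p = 0.051). CCND1 against dual knockdown gave YAP1 and WWTR1 higher and AXL lower, 3 beside 20.3%, and 4 without NT3 replicate 3, adding AJUBA (lower), beside 30.5%. NT3 replicate 3 entered these contrasts only through the shared spread. Some calls were close to the threshold: YAP1 in CCND1 against dual knockdown lost it in 19 of 32 alternatives and LATS2 in dual against CDK4 knockdown in 18 of 32.

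Against proliferating cells, WWTR1, ANKRD1 and LATS2 were higher and AJUBA and AXL lower in each of the 4 knockdowns. CDK4 knockdown added TEAD1 (-0.30, 95% interval -0.56 to -0.036, adjusted p = 0.0446) and CCN2 (-0.76, 95% interval -0.97 to -0.56, adjusted p = 6.6e-07), both lower. CDK6 knockdown added AMOTL2 higher (0.26, 95% interval 0.11 to 0.41, adjusted p = 0.00342) and YAP1 lower (-0.45, 95% interval -0.64 to -0.26, adjusted p = 0.000182), and dual knockdown added YAP1 lower (-0.22, 95% interval -0.41 to -0.032, adjusted p = 0.0384). The call of TEAD1 was lost in 14 of the 21 fits without 1 library (adjusted p up to 0.216, without CDK4 knockdown replicate 3). That of YAP1 in dual knockdown was lost without proliferating replicate 2 or 3 or any 1 dual library (up to 0.105). The counts were 5, 7, 7 and 6 of 10 for CCND1, CDK4, CDK6 and dual knockdown, beside 63.8%, 62.7%, 66.1% and 65.6% of all genes, so they are near the background. Centring each library on its median raised differences from proliferating cells by 0.11 to 0.13 on the log2 scale. TEAD1 in CDK4 and YAP1 in dual knockdown then no longer passed (adjusted p = 0.214 and 0.395). AMOTL2 in CCND1 and dual, CCN1 in dual and CCN2 in CDK6 knockdown passed as higher (0.00186, 0.00185, 0.0113 and 0.00575). Both lost calls were also lost under quantile normalisation (TEAD1 0.11, YAP1 0.0803) and under DESeq2 (0.0636 and 0.0547).

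The other TEAD genes were lower in all irradiated groups than in proliferating cells. TEAD2, TEAD3 and TEAD4 were called lower in the controls, 3 of 4 tested genes, beside 52.4% of all genes called in either direction. The same 3 genes also passed as lower in each of the 4 knockdowns, beside 63.8% (CCND1), 62.7% (CDK4), 66.1% (CDK6) and 65.6% (dual). VGLL4, a TEAD co-repressor and the other tested gene, was lower in NT3 and higher in NT4 than in proliferating cells. TEAD2 fell from 1074 ± 4.28 (SD, n = 3) to 408 ± 9.21 in NT3 and 516 ± 16.8 in NT4, with log2 differences of -1.40 and -1.06. TEAD4 fell from 417 ± 20.3 (SD, n = 3) to 233 ± 39.7 and 142 ± 11.9. None of these 4 genes was called by limma, edgeR or DESeq2 in any knockdown against both controls, and 1 had an unadjusted limma p under 0.05 against both, in CCND1 knockdown. The median difference of the 4 against proliferating cells was -0.90 against -0.026 for all tested genes.

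Of 20 tested genes of the Hippo kinase cascade and its regulators, 2 were called higher and 9 lower in the controls than in proliferating cells, a share near the 52.4% of all genes. Among those lower was DCHS1, an atypical cadherin, which read 2343 ± 80.3 (SD, n = 3) in proliferating cells, 599 ± 201.2 in NT3 and 1004 ± 25.2 in NT4. LIMD1 and WTIP are relatives of AJUBA. LIMD1 fell by 1.51 in NT3 and by 0.68 in NT4 on the log2 scale, and WTIP fell by 1.04 and 0.88. Against both controls, 3 were higher in CCND1 knockdown, none was called in CDK4 knockdown (0 by limma, edgeR or DESeq2, and 0 at an unadjusted p under 0.05), 2 were higher and 2 lower in CDK6 knockdown, and 4 were higher and 1 lower in dual knockdown. The shares of all genes called in either direction were 11.6%, 4.67%, 21% and 23.6% for CCND1, CDK4, CDK6 and dual knockdown, so the counts in CDK6 and dual knockdown were near the background. Without NT3 replicate 3 these counts were 4, none, 4 and 2, and 4 and 2, beside 16.3%, 7.96%, 26.3% and 30.6% of all genes in that fit. The gene lower in dual knockdown was WWC1 (KIBRA, an upstream activator of LATS), which read 64.7 ± 6.55 (SD, n = 3) in dual knockdown against 200.6 ± 12.4 in NT3 and 140.3 ± 32.7 in NT4. Its differences were -1.62 (95% interval -1.95 to -1.29, adjusted p = 4.49e-08) and -1.08 (95% interval -1.42 to -0.75, adjusted p = 1.57e-05). WWC1 was also called lower against both controls in CDK6 knockdown, and lower in both controls than in proliferating cells.

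Another 15 listed genes known as YAP and TEAD targets were mixed in direction. Against proliferating cells 4 were higher (F3, GADD45A, NT5E and TGFB2) and 5 lower in both controls, 9 of 15 beside 52.4% of all genes. In CDK6 knockdown 5 were called higher and 5 lower, and in dual knockdown 4 higher and 3 lower. CCND1 knockdown gave 1 higher and 1 lower, and CDK4 knockdown 1 higher. Of all genes, 21% (CDK6), 23.6% (dual), 11.6% (CCND1) and 4.67% (CDK4) were called in either direction. Without NT3 replicate 3 the counts were 4 and 2 for CCND1, 1 and 1 for CDK4, 5 and 5 for CDK6, and 6 and 5 for dual knockdown. The shares of all genes in that fit were 16.3%, 7.96%, 26.3% and 30.6% in the same order. F3, the gene of tissue factor, was the 1 gene higher in all 4 knockdowns and is named here after its values were seen, with differences from NT3 of 0.27, 0.37, 0.26 and 0.55 in the order CCND1, CDK4, CDK6, dual. GADD45A, a stress gene, was lower in CCND1, CDK6 and dual knockdown. TGFB2, a growth factor, was higher in dual knockdown (against NT3, 0.65, 95% interval 0.37 to 0.93, adjusted p = 0.000529). IGFBP3, an insulin-like growth factor binding protein, resembled ANKRD1 in its controls: NT3 held 33467 ± 4851 (SD, n = 3) and NT4 8176 ± 1016, and every knockdown passed as lower than NT3 and higher than NT4. FOXF2, a forkhead factor, had the reverse order, with 132 ± 8.41 (SD, n = 3) in NT3 and 303 ± 24.1 in NT4.

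SRF and its MRTF co-activators are a second actin-sensing system whose targets overlap those of YAP. Most of the listed target genes were higher in 3 of the 4 knockdowns. Of 14 genes, 8 were called higher in CCND1 knockdown, 10 in CDK6 knockdown and 10 in dual knockdown, against both controls. In CDK4 knockdown none was higher by limma, edgeR or DESeq2 (1 at an unadjusted p under 0.05) and 3 were lower (SRF, ACTA2 and TPM2). The shares of all genes called higher were 6.14%, 10.1% and 11.3% for the first 3 groups. This list was chosen with earlier results of these data known, so the shares are given as a description only. In CDK4 knockdown 4.67% of all genes were called in either direction. ACTA2 (smooth muscle actin) read 6030.3 ± 392 (SD, n = 3) in CCND1, 6518 ± 327 in CDK6 and 4608 ± 189 in dual knockdown, against 3132 ± 325 in NT3, 3245 ± 211 in NT4 and 2323 ± 157 in CDK4 knockdown. CNN1 (calponin) rose in CDK6 knockdown by 1.33 (95% interval 1.17 to 1.49, adjusted p = 1.66e-11) against NT3, and TAGLN (transgelin) in dual knockdown by 1.31 (95% interval 1.15 to 1.46, adjusted p = 1.77e-11). SRF itself was lower in dual and CDK4 knockdown. Neither SRF nor MRTFA nor MRTFB was called higher against both controls in any knockdown. Without NT3 replicate 3 the counts were 10 higher in CCND1, 1 higher and 3 lower in CDK4, 12 higher in CDK6, and 11 higher and 1 lower in dual knockdown. Of all genes, 16.3%, 7.96%, 26.3% and 30.6% were called in either direction in that fit, in the same order. Against proliferating cells 8 of the 14 were lower in both controls, FLNA (filamin A) by 1.49 in NT3 on the log2 scale, and 2 were higher, beside 52.4% of all genes called in either direction. The median of the 14 was 0.61 against -0.01 for all tested genes in CDK6 knockdown and -0.00059 against 0.0028 for all tested genes in CDK4 knockdown. Fibroblast markers were also highest in dual knockdown, and their part in these differences was not tested.

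**Figure D3:**
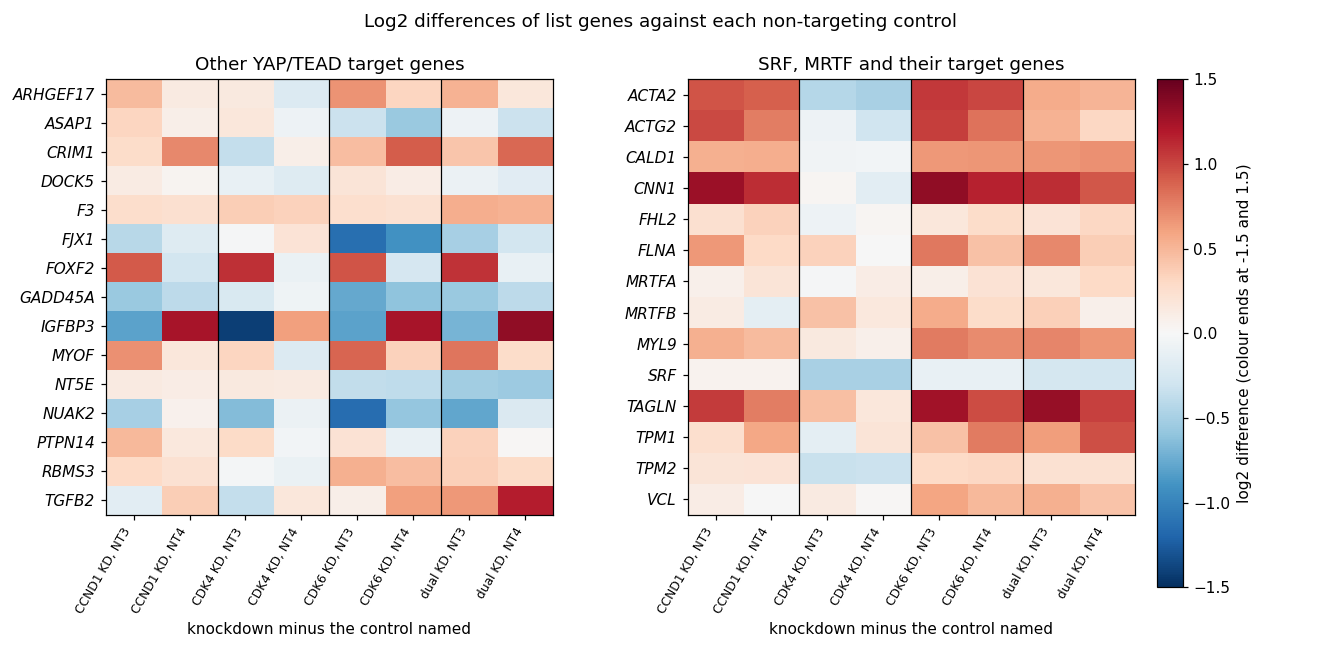
Log2 differences (colour) of 15 other YAP and TEAD target genes and 14 SRF and MRTF genes (rows) in each knockdown against each control (columns). The SRF and MRTF genes are mostly red in CCND1, CDK6 and dual knockdown under both controls, whereas IGFBP3 changes colour with the control in every knockdown.

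Relatives of the set were also read. CCN4, of the same family as CCN1 and CCN2, was lower in NT4 (705 ± 102.5, SD, n = 3) than in proliferating cells (2640.1 ± 156), with a difference of -1.91 (95% interval -2.22 to -1.60, adjusted p = 3.15e-10), and was also lower in NT3 (-0.97, 95% interval -1.28 to -0.66, adjusted p = 7.16e-06). CCN3 was at most 209 in any library and was called lower in CCND1 and dual knockdown. GAS6, the ligand of AXL, was called higher in CCND1, CDK6 and dual knockdown. In CDK6 knockdown GAS6 read 28168 ± 557 (SD, n = 3) against 20290.1 ± 1313 in NT3, a difference of 0.48 (95% interval 0.32 to 0.63, adjusted p = 2.69e-05), while AXL was lower. TYRO3, another receptor for GAS6, was lower in NT3 than in proliferating cells (-0.69, 95% interval -0.90 to -0.47, adjusted p = 4.29e-06), did not pass in NT4 (0.14, 95% interval -0.067 to 0.36, adjusted p = 0.224), and was called in no knockdown.

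Likeness was measured as Pearson's r of log2 values over the 18 irradiated libraries, which are 3 libraries of each of 6 groups and so are not independent points. The genes most like ANKRD1 were ADPGK (0.914), SRP68 (0.892), B4GALT7 (0.890), EDN1 (0.886) and LRRC17 (0.886). EDN1, the gene of endothelin 1, read 693 ± 56.3 (SD, n = 3) in NT3 and 252 ± 47.1 in NT4. Among the genes most like CCN2 were F2RL2 (0.952), P3H2 (0.941), SPATA20 (0.936) and TNFAIP1 (0.935). F2RL2, a protease-activated receptor, read 1394 ± 32.9 in CDK6 knockdown and 774.6 ± 128.7 in CDK4 knockdown. None of these 4 was among the 5 named for ANKRD1.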

How the data were processed

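RNA-seq values of 21 IMR90 libraries (7 groups of 3) were taken from 1 deposited table. Its signal is the authors' normalised count per gene, per the file headers. Per the submitters' processing notes the tools were Trimmomatic 0.38.1, HISAT2 2.2.1, featureCounts 2.0.3, FastQC 0.74, MultiQC and DESeq2 2.11.40.8, with the build hg38; their roles, the annotation and the strand setting are not given in the sources used here. Reads shared by similar or overlapping genes could therefore not be resolved. In each library 100% of values were whole multiples of a step (tolerance 0.01), which gave the reads and library totals.

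The test covered 11579 genes, those reaching 10 in 3 or more libraries. Values were log2-transformed after adding 1 (the pseudocount), and limma 3.58.1 (R 4.3.3) was run with a trended spread shared by the 7 groups. Tests were two-sided with Benjamini-Hochberg adjustment at 0.05. No test was run for NT4 against NT3, or for ANKRD1 against either control. Columns carry no replicate number, so replicate names follow column order. Alternatives included edgeR 4.0.16 and DESeq2 1.42.0 on the recovered reads.

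The 10 genes and all lists were chosen with earlier results of these data known. All 10 were named; from each pathway list, at most 4 genes with the largest difference in a comparison that called them and a mean of at least 100 in the higher group; and the 5 genes most like ANKRD1 and CCN2, of which 1 is not reported here. Other names give small counts or complete a list and were added after values were seen. Listed genes of the pathway lists are those in the table; AMOT, AMOTL1, VGLL3, CCDC80 and ANKRD23 were not analysed here. Promoter windows are RefSeq's.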

Additional observations from a re-analysis of the deposited data

How the results depend on the processing

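Over 190 tested comparisons of single genes of the set, 5964 alternative values kept direction and side of the threshold in 5697 cases. The threshold was lost in 164, and 1 reversed; the rest gained the threshold. The reversed value was YAP1 in dual knockdown against NT3, which was -0.15 (adjusted p = 0.0404) without NT3 replicate 3 and ranged from -0.15 to 0.13 over libraries left out. Counts of called genes of the set moved as follows, and except where the setting drops samples the cause was not tested. Against proliferating cells the count of 2 became 4 under median centring and ranged from 2 to 4 with 1 library left out. In CCND1 knockdown the count of 1 became 2 under quantile normalisation and under DESeq2, and 1 to 2 with 1 library left out. In CDK4 knockdown it was 0 to 1 with 1 library left out. In CDK6 knockdown the count of 2 became 1 when the compared groups were fitted alone, and 2 to 4 with 1 library left out. In dual knockdown the count of 1 became 0 with the compared groups alone, and 0 to 1 with 1 library left out. With the compared groups alone, dual against CDK6 knockdown gave 7 (main 3), CCND1 against CDK6 gave 4 (main 2) and CCND1 against CDK4 gave 7 (main 3); leaving out 1 library gave 3 to 6, 2 to 3 and 3 to 6. Dual against CDK4 knockdown gave 1 to 6 with 1 library left out. Over all genes, the compared groups alone gave 280 calls in CDK4 knockdown against both controls (main 541), 2434 in dual against CDK6 (main 1504) and 2416 in CCND1 against CDK6 knockdown (main 1414). In the same fits CCND1, CDK4, CDK6 and dual knockdown against NT3 gave 2019, 828, 3192 and 2940 calls (main 4424, 2962, 5365 and 5166). With 1 library left out, calls in CDK4 knockdown against both controls ran from 310 (without CDK4 knockdown replicate 2) to 922 (without NT3 replicate 3).

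The replicate numbers of the labels could not serve as a block, since the table's columns do not carry them. An alternative chosen after seeing the data used the library numbers in the column names, which run in 3 consecutive sets with 1 library of each irradiated group, as a replicate block. Deviations of libraries of the same set had a median r of 0.037 (45 pairs, range -0.11 to 0.10). Libraries of different sets had a median r of -0.017 (90 pairs, range -0.14 to 0.16). Any deviation shared within a set was therefore weak, and whether one exists was not tested. The replicate block, fitted on the irradiated libraries, gave 2 called genes in CCND1 knockdown (main 1). With it CCN2 passed as lower in dual and in CCND1 than in CDK6 knockdown (adjusted p = 0.0169 and 0.0141), LATS2 as higher than NT3 in CCND1 and CDK6 knockdown (0.0457 and 0.0291) and AMOTL2 as higher than NT4 in CDK6 knockdown (0.0209). YAP1 in CDK4 knockdown against NT3 no longer passed (0.0546). 3 further calls were lost with the block and also in the irradiated libraries without it: YAP1 in dual against CDK4 knockdown (0.0606 and 0.0503), YAP1 in CCND1 against dual knockdown (0.0789 and 0.0658) and WWTR1 in dual knockdown against NT4 (0.0739 and 0.0587). Without the block those libraries also lost CCN1 in dual knockdown against NT3 (0.0579) and LATS2 in dual against CDK4 knockdown (0.0614).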

Other observations

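Over the 12 knockdown libraries alone, which leave out the controls, other genes were most like the pair. For ANKRD1 these were TPM3 (r = 0.929), ARRDC4 (0.927), MPZL1 (0.924), ARHGAP39 (0.918) and PISD (0.916), and for CCN2 they were EPB41L2 (0.986), IGFBP5 (0.982), SULF1 (0.982), HUNK (0.981) and CEMIP (0.98). None of these 10 was among the genes named over the 18 irradiated libraries. The 12 points are 3 libraries of each of 4 groups and so are not independent.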
